A study of Mus musculus with 9 samples.

Results

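Ribosome biogenesis is described here through 37 genes that encode RNA polymerase I subunits, small nucleolar ribonucleoproteins (snoRNPs), nucleolar scaffold proteins and assembly factors of the small and large ribosomal subunits. They were chosen by symbol, with earlier results of these data known, and matched to Ensembl gene IDs through GENCODE release M21 of the mouse build GRCm38. All 37 were among the 38293 genes of the count table, and all 37 were among the 14124 genes that passed edgeR's filter on low counts. The samples are total RNA of the left ventricle from 9 male mice of the C57BL/6 strain at an age of 8 weeks, in 3 groups of 3. One group had sham surgery (mice 1, 2 and 3). The others had ischemia-reperfusion (I/R), in which the left anterior descending artery was tied for 1 hour and then reopened, and were sampled at 24 hours (here 1 day, mice 4, 5 and 6) or at 14 days (libraries A, B and C, letters used as names only because their count columns share 1 header). The labels name no genetic change or drug in any group, give the infarct region as the tissue of all 9 samples, sham included, and do not say how long after surgery sham tissue was taken.

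Ribosomes are made in the nucleolus, where RNA polymerase I transcribes a long precursor of the ribosomal RNAs. Box C/D snoRNPs guide 2′-O-methylation of that precursor, and box H/ACA snoRNPs guide its pseudouridylation. Processome and assembly factors fold and cut the precursor and join it to ribosomal proteins, first in separate small-subunit and large-subunit particles. The pathway is known to respond to growth signals, among them the transcription factor MYC, and in the heart it has been studied in connection with cardiomyocyte growth.

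Total counts per library ran from 20215781 to 36816818, of which 5706225 to 14501223 lay outside mitochondrially encoded and ribosomal RNA genes. Those genes took 65% to 71.8% of the counts in sham, 52% to 63.3% at 1 day and 65.0% to 68.8% at 14 days, so the 1-day libraries had the smallest share. Cardiomyocyte markers, which define the labelled tissue, summed to 23310 to 25440 CPM in sham and were detected in all 9 libraries. CPM is a gene's count per 1000000 counts of its library, scaled by the trimmed mean of M values (TMM), whose factors were 0.774 to 0.948 in sham, 1.07 to 1.46 at 1 day and 0.863 to 1.04 at 14 days. The 37 genes had between 13 and 4075 counts per library, except Fbl, the gene of fibrillarin, which had 3 to 22.

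At 1 day after I/R, 34 of the 37 genes were higher than in sham, 1 was lower (Nop10) and 2 did not pass the test (Polr1a and Rrp1), by edgeR's quasi-likelihood test at an adjusted p under 0.05. Over all tested genes 29.4% were higher and 24.8% were lower in that comparison. The median log2 fold of the 37 was 0.98, a 1.97-fold rise, beside 0.04 over all tested genes. The folds ran from -0.27 (Nop10) to 2.35 (Rrp12), and 17 genes rose by more than 2-fold. With total counts as the only scaling, the median of all tested genes moved to 0.53 and that of the 37 to 1.47. Scaling moves all folds of a comparison by about the same amount. The distance between both medians (0.93 with TMM, 0.94 without it) could therefore hardly change and is no check on the scaling. With that scaling, all tested genes split into 6859 higher and 1058 lower, in place of 4153 and 3496. The smaller share of mitochondrially encoded and ribosomal RNA genes moved with the 1-day group, and with TMM computed without those genes 34 of the 37 were again higher and 1 lower.

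**Figure D1:**
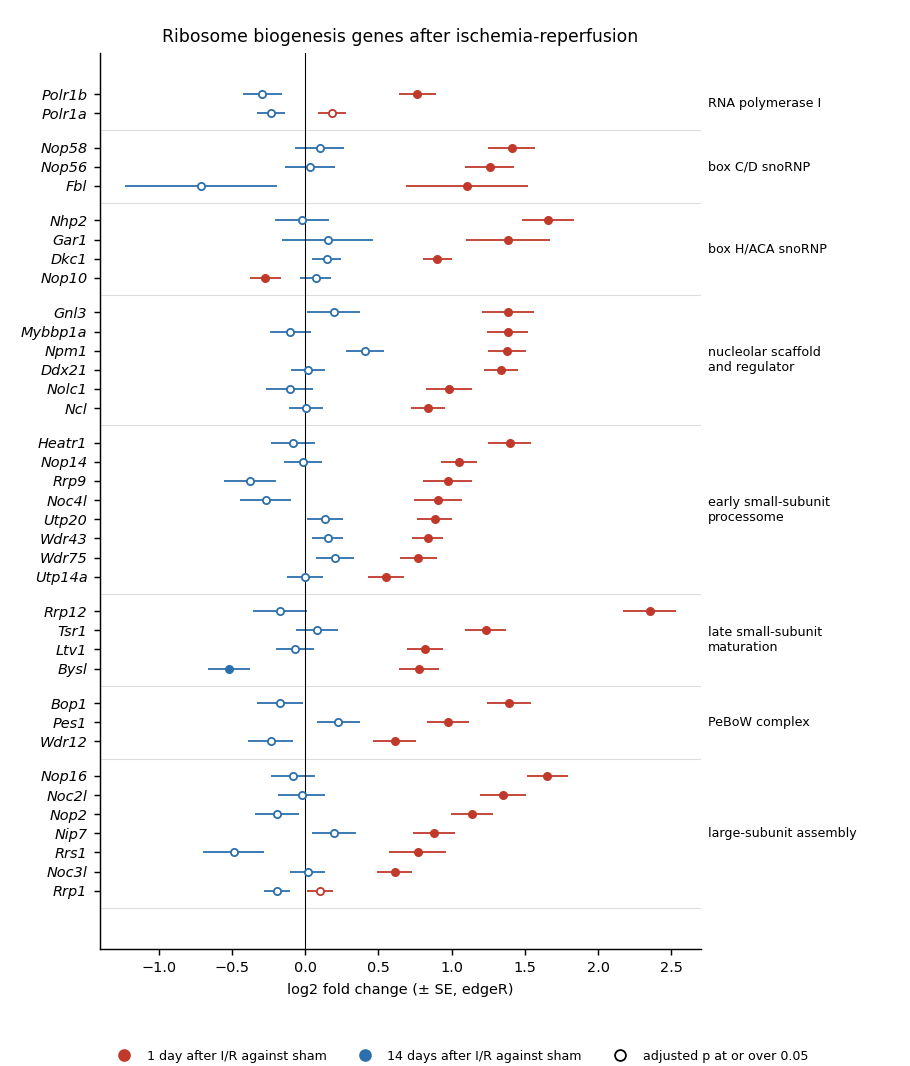
Log2 fold change against sham (x axis, with SE) of each of the 37 genes (y axis, grouped by role) at 1 day (red) and 14 days (blue) after I/R, where filled points passed an adjusted p under 0.05. The 1-day points lie right of 0 for 36 genes, and the 14-day points lie around 0, with Bysl the filled one.

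At 14 days the 37 genes were near their sham level. By the same test 0 were higher and 1 was lower (Bysl), beside 8.75% higher and 5.64% lower over all tested genes. The median log2 fold was -0.02, beside 0.01 over all tested genes. At an unadjusted p under 0.05, 1 gene was higher (Npm1) and 4 were lower (Polr1a, Polr1b, Bysl and Rrs1). DESeq2's Wald test and limma-voom also called 0 higher. Npm1 was called higher with upper-quartile scaling, with no filter on low counts and with those groups fitted alone. It was also called without mouse 6 and without library A. Between both times after I/R, 36 of the 37 genes were lower at 14 days than at 1 day and 1 was higher (Nop10), beside 26.8% lower and 25.1% higher over all tested genes. The median log2 fold was -1.15 in that comparison, and 22 genes had a log2 fold under -1. Both I/R groups were compared with the same 3 sham libraries, and the comparison between the times uses the same I/R libraries again.

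**Figure D2:**
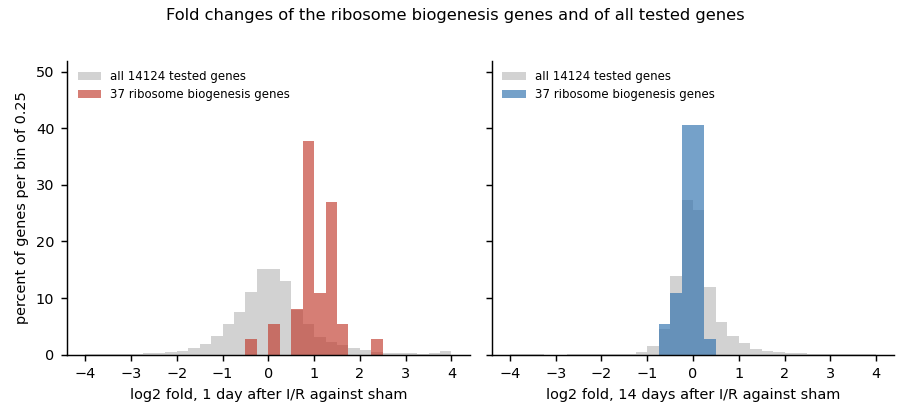
Share of genes (y axis, percent per bin of 0.25) by log2 fold against sham (x axis) at 1 day (left) and 14 days (right), for all 14124 tested genes (grey) and the 37 ribosome biogenesis genes (colour); folds beyond 4 in size stand in the end bins. The 37 genes center near 0.98 at 1 day and near -0.02 at 14 days.

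The rise differed in size between the 3 mice sampled at 1 day. The median of the 37 log2 CPM values lay 1.04, 0.96 and 0.63 above the sham mean in mice 4, 5 and 6. The sham libraries lay at 0.04, 0.02 and -0.05, and the 14-day libraries at -0.05, -0.05 and 0.00. Summed over the 37 genes, expression was 391.4 ± 11.3 CPM in sham, 784.6 ± 120 CPM at 1 day and 387.6 ± 3.55 CPM in libraries A, B and C (mean ± SD over 3 libraries). Mouse 6 was the lowest of the 1-day libraries for 34 of the 37 genes. Without it 34 genes were higher and 1 was lower, and the median log2 fold was 1.10.

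Other markers changed after I/R as well, in patterns that differed between the lists. Summed cell cycle genes were highest at 1 day, as the ribosome biogenesis genes were, and cardiomyocyte sums were lowest there. Fibroblast sums were highest at 14 days, and myeloid sums overlapped between both times after I/R. Of 17 cell cycle genes 16 were tested and 15 rose at 1 day, with summed levels of 42.6 to 44.1 CPM in sham, 74.7 to 175 CPM at 1 day and 46.3 to 63.1 CPM at 14 days. Mouse 6 had the least of the 1-day libraries. The most abundant called genes were Mki67 (log2 fold 1.49, SE 0.41) and Mcm6 (log2 fold 2.16, SE 0.24). Of 11 myeloid cell markers 9 rose at 1 day (median log2 fold 1.86). Their summed levels were 112 to 126 CPM in sham, 250 to 317 CPM at 1 day and 172 to 338 CPM at 14 days. The most abundant called ones were Lyz2 (log2 fold 0.86, SE 0.20) and Ptprc (log2 fold 1.27, SE 0.25). Lyz2 weighs most in the sum, with means of 60.7, 110 and 155 CPM in sham, at 1 day and at 14 days. Between both times after I/R, 6 of the 11 were lower at 14 days and 2 were higher (median log2 fold -1.05). Of 9 cardiomyocyte markers 8 fell at 1 day, with summed levels of 8237 to 15600 CPM there and 16560 to 22520 CPM at 14 days. The most abundant called ones were Myh6 (log2 fold -1.41, SE 0.32) and Myl2 (log2 fold -1.23, SE 0.22). With total counts as the only scaling 6 of the 9 fell (median log2 fold -0.68, in place of -1.13). Of 7 fibroblast markers 1 rose (14.3%) and 3 fell (42.9%) at 1 day, and with total counts as the only scaling 1 rose and 2 fell. Their summed levels were 396 to 561 CPM in sham, 404 to 501 CPM at 1 day and 972 to 2104 CPM at 14 days. Dcn (log2 fold -1.17, SE 0.25) and Dpt (-1.24, SE 0.27) fell at 1 day and Pdgfra rose (0.87, SE 0.18). Of 6 endothelial markers 0 rose and 2 fell (33.3%), Kdr (log2 fold -1.24, SE 0.15) and Emcn (-0.43, SE 0.10). Emcn did not fall with total counts as the only scaling (0.04), where 1 marker rose and 1 fell. Of 5 smooth muscle and pericyte markers Pdgfrb (log2 fold 0.37, SE 0.10) and Tagln (0.77, SE 0.21) rose (40%). The 2 that fell (40%) included Rgs5 (-1.02, SE 0.20), the more abundant, and with total counts as the only scaling 2 rose and 1 fell. Tagln shares 67.9% of its exonic bases with another gene. With total counts as the only scaling, the 16 tested cell cycle genes and the 11 myeloid cell markers were all higher at 1 day. That scaling called 6859 of all 14124 tested genes higher and 1058 lower there. Lymphocyte markers summed to at most 1.76 CPM in every library, and Cd3e, Cd3g and Cd79a each had a count of 0 in at least 1 library. The part of these cell types in the ribosome biogenesis result was not tested. In whole tissue, a change in the share of cells of a type and a change in RNA per cell cannot be told apart.

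**Figure D3:**
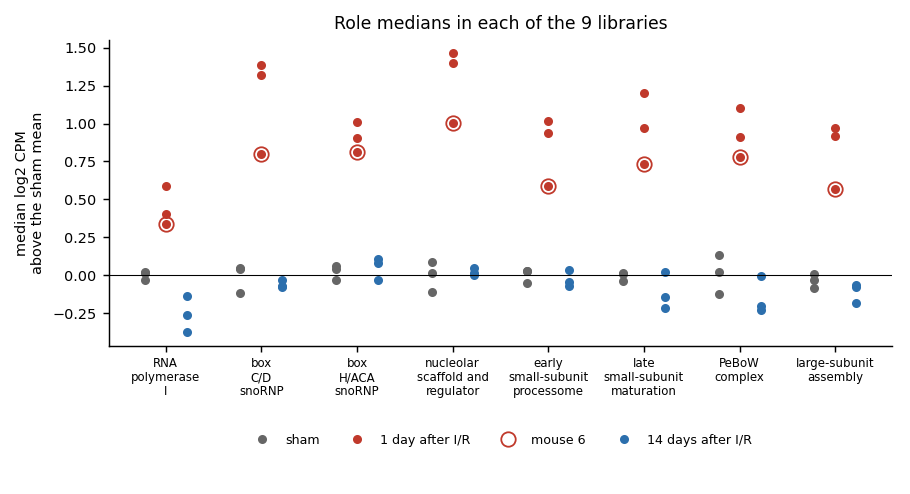
Median log2 CPM above the sham mean (y axis) of the genes of each of the 8 roles (x axis) in each library, in sham (grey), at 1 day (red, mouse 6 ringed) and at 14 days (blue). Every 1-day point lies above every sham and 14-day point of its role, and mouse 6 is the lowest 1-day point in each.

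Promoter sequence is shown for the genes whose start region holds a hexamer bound by MYC and its partner MAX, because Myc itself changed in these hearts (given further on). RefSeq promoters of the build GRCm38.p6, each 300 bases from 250 before to 50 after a start site, were matched for 32 of the 37 genes (35 promoters). Rrs1, Fbl, Bop1, Npm1 and Rrp12 were not matched. The E-box CACGTG, which reads the same on both strands, was found in 7 of the 35 promoters (20%), in 7.15% of all 32851 promoters of the table and in 9.80% of the 13164 promoters of genes tested here. The ETS core CCGGAA, searched on both strands, was in 40%, 14.9% and 26.1% of those promoters. The CGCG element TCGCGAGA, also searched on both strands, was in 8.57%, 0.995% and 2.0%. Differences between these shares were not tested for any of the 3 motifs, and neither was binding of MYC. In the 35 promoters, 0 matches of one motif overlapped a match of another. Capitals mark the E-box in the stretches of 30 bases below, each printed on the gene's own strand.
Nop2 (chr6:125131811-125131840, plus strand): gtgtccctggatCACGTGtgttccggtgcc
Pes1 (chr11:3963965-3963994, plus strand): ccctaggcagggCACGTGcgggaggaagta
Mybbp1a (chr11:72441347-72441376, plus strand): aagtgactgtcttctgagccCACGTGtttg
Tsr1 (chr11:74898092-74898121, plus strand): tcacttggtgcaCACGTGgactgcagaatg
Ltv1 (chr10:13193092-13193121, minus strand): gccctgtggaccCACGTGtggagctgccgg
Utp20 (chr10:88826765-88826794, minus strand): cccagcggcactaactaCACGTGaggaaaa
Wdr43 (chr17:71616220-71616249, plus strand): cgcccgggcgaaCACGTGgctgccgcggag

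In Nop2 the E-box begins 60 bases before the start site, and in the other 6 genes it lies within the first 50 transcribed bases. The 7 genes with the hexamer had log2 folds at 1 day from 0.82 to 1.38 (median 0.98). The 25 matched genes without it had log2 folds from -0.27 to 1.66 (median 0.91), and both ranges overlapped. The difference was not tested, and the 5 genes that were not matched include Rrp12, with the largest fold of the 37 (2.35). The CGCG element was found in 3 genes, Nop14, Nop58 and Tsr1, and is shown in capitals for the first 2 because Nop14 holds it on each strand and Nop58 led its role at 1 day.
Nop14 (chr5:34660134-34660163, minus strand): tgacgcactcaTCGCGAGAcgaagctgggc
Nop14 (chr5:34660165-34660194, minus strand): acttgtgtactTCTCGCGAaatacgggaag
Nop58 (chr1:59684843-59684872, plus strand): aaaaaaaaaagTCTCGCGAtattttaaggc

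Of the 2 subunits of RNA polymerase I, Polr1b rose at 1 day and Polr1a did not pass the test. Polr1b (ENSMUSG00000027395, chromosome 2, 129100995 to 129126594), the second largest subunit, had 8.00, 7.65 and 8.50 CPM in sham mice 1, 2 and 3. At 1 day it had 15.9, 13.6 and 11.2 CPM in mice 4, 5 and 6, and at 14 days 6.82, 6.62 and 6.17 CPM in libraries A, B and C. Every 1-day library lay above every sham library (log2 fold 0.77, SE 0.13, edgeR adjusted p = 0.000557). Polr1a (ENSMUSG00000049553, chromosome 6, 71909053 to 71984935), the largest subunit, had 35.0, 34.3 and 33.5 CPM in sham, 40.5, 36.2 and 40.1 CPM at 1 day, and 33.0, 28.4 and 26.0 CPM at 14 days. Its groups did not overlap, yet the 1-day change did not pass the test (log2 fold 0.18, SE 0.10, edgeR adjusted p = 0.130). It was called with total counts as the only scaling (log2 fold 0.67). The difference between both subunits was not tested.

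The genes of the box C/D core proteins rose at 1 day, although Fbl rests on few counts. Nop58 (ENSMUSG00000026020, chromosome 1, 59684971 to 59719044), whose promoter stretch is given above, had 7.83, 6.98 and 8.05 CPM in sham, 22.9, 22.6 and 14.7 CPM at 1 day, and 8.07, 7.45 and 8.91 CPM at 14 days. Its 1-day libraries stood clear of the other 6 (log2 fold 1.41, SE 0.16, edgeR adjusted p = 6.92e-05). Nop56, its partner in the same particle, rose by a log2 fold of 1.26 (SE 0.17), from 5.82 ± 0.598 to 13.9 ± 2.97 CPM (SD, n = 3 per group). Of the longest Nop56 transcript, 25.2% matched other annotated genes at 95% identity or more, so its counts are uncertain. Fbl (ENSMUSG00000046865, chromosome 7, 28169710 to 28179269), the methyltransferase of the particle, had 9, 4 and 4 counts in sham, 22, 16 and 11 counts at 1 day, and 5, 3 and 5 counts at 14 days. These are 0.377, 0.135 and 0.256 CPM in sham, then 0.498, 0.635 and 0.493 CPM, then 0.173, 0.0879 and 0.204 CPM. Its groups did not overlap at 1 day (log2 fold 1.10, SE 0.41, edgeR adjusted p = 0.0407), but the call was lost with DESeq2's Wald test (log2 fold 1.08) and without sham mouse 2 (0.71), among other settings.

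Of the 4 genes of box H/ACA proteins 3 rose and Nop10 did not. Nhp2 (ENSMUSG00000001056, chromosome 11, 51619735 to 51623714) had 4.35, 3.40 and 4.09 CPM in sham, 13.8, 13.9 and 9.23 CPM at 1 day, and 3.46, 3.90 and 4.25 CPM at 14 days. Each 1-day library stood well above the other 6 (log2 fold 1.66, SE 0.17, edgeR adjusted p = 4.73e-05). Gar1 rose by a log2 fold of 1.38 (SE 0.29), from 0.705 ± 0.147 to 1.83 ± 0.242 CPM. Dkc1, the gene of the pseudouridine synthase dyskerin, rose by 0.90 on the log2 scale (SE 0.10), from 7.21 ± 0.568 to 13.5 ± 0.718 CPM (SD, n = 3 per group). Nop10 (ENSMUSG00000027133, chromosome 2, 112261926 to 112263269) had 13.4, 14.7 and 15.1 CPM in sham, 10.3, 13.3 and 12.2 CPM at 1 day, and 14.7, 15.1 and 15.6 CPM at 14 days. It was lower at 1 day by a narrow margin (log2 fold -0.27, SE 0.11, edgeR adjusted p = 0.0474). That direction turned with total counts as the only scaling (log2 fold 0.20), and the call was lost in DESeq2's Wald test (log2 fold -0.30). It was also lost without sham mouse 1, 2 or 3, mouse 4 or library B (log2 folds of -0.32, -0.26, -0.25, -0.20 and -0.28).

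All 6 genes of nucleolar scaffold and regulator proteins rose at 1 day. Gnl3 (ENSMUSG00000042354, chromosome 14, 31012433 to 31019152), which encodes the GTP-binding protein nucleostemin, had 9.63, 7.99 and 6.26 CPM in sham, 22.5, 24.2 and 16.0 CPM at 1 day, and 8.21, 9.56 and 9.85 CPM at 14 days. Its 1-day and sham libraries did not overlap (log2 fold 1.38, SE 0.18, edgeR adjusted p = 0.000140). Ncl (ENSMUSG00000026234, chromosome 1, 86344719 to 86359400), the gene of nucleolin, had 46.2, 47.6 and 50.3 CPM in sham, 92.2, 93.7 and 71.6 CPM at 1 day, and 48.3, 51.4 and 44.9 CPM at 14 days. It had the smallest fold of the role, with groups that did not overlap (log2 fold 0.84, SE 0.11, edgeR adjusted p = 0.000182). Npm1, which encodes the histone and ribosome chaperone nucleophosmin, rose from 17.1 ± 1.02 to 44.3 ± 7.83 CPM (log2 fold 1.38, SE 0.13). Its longest transcript matched other annotated genes over 53.8% of its length at 95% identity or more, so its counts are uncertain. The RNA helicase gene Ddx21 rose from 22.2 ± 1.40 to 56.2 ± 9.41 CPM and Mybbp1a, of which an E-box stretch is shown above, from 22.3 ± 3.05 to 58.2 ± 10.7 CPM (SD, n = 3 per group). Nolc1, which encodes the snoRNP partner Nopp140, rose by a log2 fold of 0.98 (SE 0.16).

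**Figure D4:**
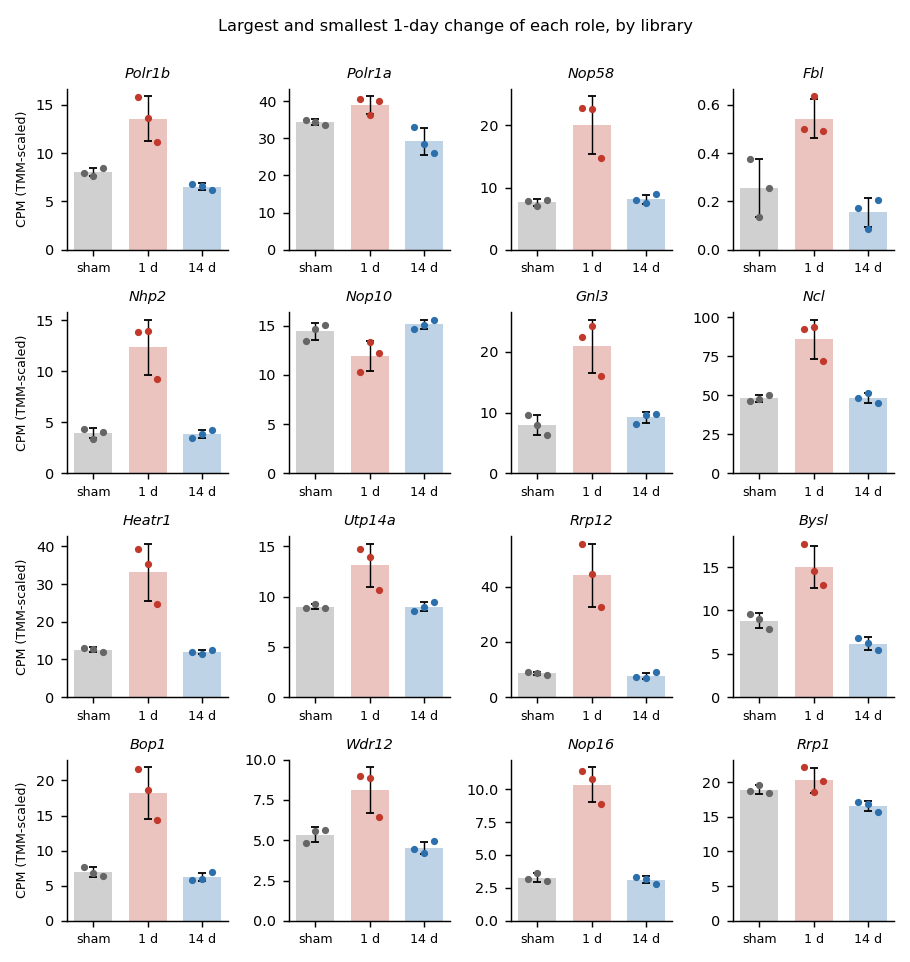
CPM (y axis, from 0) of the genes with the largest and the smallest 1-day fold of each role, in sham, at 1 day and at 14 days; bars are means, error bars SD (n = 3) and points single libraries. Rrp12 goes from 8.65 to 44.1 CPM and back to 7.72 CPM, while Rrp1 has 18.9 CPM in sham and 20.3 CPM at 1 day.

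Within the small-subunit processome, the particle that first assembles on the precursor, all 8 genes rose at 1 day (median log2 fold 0.90). Heatr1 (ENSMUSG00000050244, chromosome 13, 12395027 to 12440289), of the t-UTP complex, had 13.1, 12.9 and 11.9 CPM in sham, 39.4, 35.4 and 24.8 CPM at 1 day, and 11.9, 11.4 and 12.5 CPM at 14 days. Its lowest 1-day library, mouse 6, was still far above the highest sham library (log2 fold 1.40, SE 0.15, edgeR adjusted p = 4.57e-05). Utp14a (ENSMUSG00000063785, chromosome X, 48256862 to 48282453) had the smallest change, with 8.83, 9.27 and 8.82 CPM in sham, 14.8, 13.9 and 10.7 CPM at 1 day, and 8.55, 8.94 and 9.44 CPM at 14 days. The groups still did not overlap (log2 fold 0.55, SE 0.12, edgeR adjusted p = 0.00287). Utp14a shares 11.5% of its exonic bases with another gene, and the strand setting of the counting is not given in the sources used here. Wdr43 and Wdr75, also of the t-UTP complex, rose by log2 folds of 0.84 (SE 0.10) and 0.77 (SE 0.13). Nop14 and its partner Noc4l rose by 1.05 (SE 0.12) and 0.91 (SE 0.16). Utp20 rose by 0.89 (SE 0.12), and Rrp9, a protein of the U3 snoRNP, by 0.97 (SE 0.17).

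Late in small-subunit maturation, Rrp12 had the largest change of the 37 genes. Rrp12 (ENSMUSG00000035049, chromosome 19, 41862851 to 41896173), which takes part in maturation and export of pre-ribosomes, had 9.21, 8.63 and 8.12 CPM in sham, 55.4, 44.4 and 32.5 CPM at 1 day, and 7.24, 7.01 and 8.91 CPM at 14 days. The rise was 5.10-fold (log2 fold 2.35, SE 0.18, edgeR adjusted p = 1.09e-05), and sham and 14-day libraries overlapped. Bysl (ENSMUSG00000023988, chromosome 17, 47599331 to 47611492), the gene of the pre-40S factor bystin, had 9.55, 9.0 and 7.86 CPM in sham, 17.7, 14.5 and 12.9 CPM at 1 day, and 6.86, 6.21 and 5.40 CPM at 14 days. It was higher than sham at 1 day (log2 fold 0.78, SE 0.14, edgeR adjusted p = 0.000750) and lower at 14 days (log2 fold -0.52, SE 0.14, edgeR adjusted p = 0.0328), with groups that did not overlap in either comparison. The 14-day call was lost without sham mouse 1, 2 or 3 (log2 folds of -0.46, -0.51 and -0.59), without library B or C (-0.52 and -0.45) and with total counts as the only scaling (-0.44). Tsr1 rose by a log2 fold of 1.23 (SE 0.14) and shares 32.3% of its exonic bases with another gene. Ltv1 rose by 0.82 (SE 0.12).

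The PeBoW complex, which processes the precursor of the large subunit, consists of Pes1, Bop1 and Wdr12, and all 3 genes rose at 1 day. Bop1 (ENSMUSG00000022557, chromosome 15, 76452989 to 76477277) had 7.66, 6.84 and 6.33 CPM in sham, 21.7, 18.6 and 14.4 CPM at 1 day, and 5.78, 5.95 and 6.91 CPM at 14 days. The 1-day libraries stood apart from the rest (log2 fold 1.39, SE 0.15, edgeR adjusted p = 5.28e-05). Wdr12 (ENSMUSG00000026019, chromosome 1, 60069785 to 60098645) had 4.81, 5.59 and 5.62 CPM in sham, 8.96, 8.90 and 6.45 CPM at 1 day, and 4.47, 4.22 and 4.95 CPM at 14 days. Mouse 6 was the closest to sham, without overlap (log2 fold 0.61, SE 0.15, edgeR adjusted p = 0.00452). Other annotated genes matched 16.9% of the longest Wdr12 transcript at 95% identity or more, so the Wdr12 counts are uncertain. Pes1 rose from 6.91 ± 0.872 to 13.6 ± 1.63 CPM (SD, n = 3 per group, log2 fold 0.98, SE 0.14). Copies in 2 other annotated genes matched 60.5% of its longest transcript, which makes its counts uncertain.

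Of the 7 large-subunit assembly genes 6 rose at 1 day. Nop16 (ENSMUSG00000025869, chromosome 13, 54584185 to 54590090) had 3.18, 3.64 and 3.00 CPM in sham, 11.4, 10.8 and 8.87 CPM at 1 day, and 3.36, 3.14 and 2.82 CPM at 14 days. Its 1-day libraries were well above all others (log2 fold 1.65, SE 0.14, edgeR adjusted p = 1.40e-05). Rrp1 (ENSMUSG00000061032, chromosome 10, 78400384 to 78413043) had 18.7, 19.6 and 18.5 CPM in sham, 22.1, 18.5 and 20.2 CPM at 1 day, and 17.2, 16.8 and 15.7 CPM at 14 days. Sham and 1-day libraries overlapped and the change did not pass the test (log2 fold 0.10, SE 0.09, edgeR adjusted p = 0.366), except with total counts as the only scaling (log2 fold 0.59). Noc2l and Noc3l, of the NOC complexes, rose by log2 folds of 1.35 (SE 0.16) and 0.61 (SE 0.12), and Noc2l shares 20.9% of its exonic bases with another gene. Nop2, an rRNA methyltransferase gene with an E-box stretch shown above, rose by 1.14 (SE 0.14). Nip7 rose by 0.88 (SE 0.15), and Rrs1, which acts with the 5S particle, by 0.77 (SE 0.19). Other annotated genes matched 11.0% of the longest Nip7 transcript at 95% identity or more, so the Nip7 counts are uncertain.

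Levels were compared between genes per kilobase (kb) of exon, and their order depends on the length used. In sham the highest were Nop10 with 13.0 ± 0.773, Npm1 with 6.40 ± 0.383, Rrp1 with 5.67 ± 0.183 and Ncl with 4.72 ± 0.203 CPM per kb (SD, n = 3). The libraries of these 4 genes did not overlap from 1 rank to the next, while Ncl overlapped with Ddx21, the fifth (4.30 ± 0.271). The lowest were Wdr12 with 0.447 ± 0.0383, Gar1 with 0.412 ± 0.0855 and Fbl with 0.0608 ± 0.0288 CPM per kb, and the first 2 of these overlapped. At 1 day Npm1 led with 16.6 ± 2.94 CPM per kb. Ddx21 (10.9 ± 1.82), Nop10 (10.8 ± 1.37), Nhp2 (10.8 ± 2.35) and Rrp12 (10.2 ± 2.64) followed with overlapping libraries. At 14 days Nop10 (13.6 ± 0.404) and Npm1 (8.53 ± 0.769) led again. Per kb of the longest transcript, Npm1 stood at 10.4 and Rrp1 at 9.54 CPM per kb in sham, still behind Nop10 and ahead of Ncl (5.86), while Mybbp1a (5.01) passed Ddx21 (4.71). At 1 day Npm1 (27.1) led on that scale, followed by Mybbp1a (13.1), Ddx21 (11.9), Nhp2 (11.8), Nop10 (10.8), Ncl (10.5), Rrp1 (10.2) and Rrp12 (10.2). At 14 days Npm1 (13.9) stood above Nop10 (13.6).

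Of the genes not called at 14 days, Npm1 was nearest to the threshold on the higher side. It had 18.0, 17.2 and 16.0 CPM in sham and 21.2, 21.9 and 25.1 CPM in libraries A, B and C, without overlap (log2 fold 0.41, SE 0.13, edgeR adjusted p = 0.0534). It was called without mouse 6 (log2 fold 0.41) and without library A (log2 fold 0.46). Without library A, Polr1a was also called lower (log2 fold -0.33). Rrs1 had 4.06, 3.27 and 3.45 CPM in sham and 3.12, 2.64 and 1.88 CPM at 14 days, a difference that did not pass the test (log2 fold -0.49, SE 0.21, edgeR adjusted p = 0.139).

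Small nucleolar RNAs themselves could not be tested. The annotation places 21 snoRNA genes inside 7 of the 37 genes on the same strand, and 10 of them share exonic bases with the host. Together they had 274 counts over the 9 libraries, and 0 passed the filter on low counts. Summed counts were 12 to 25 per library in sham, 28 to 60 at 1 day and 18 to 41 at 14 days, on libraries of unequal depth.

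Other ribosome biogenesis genes moved the same way at 1 day with smaller median folds. Of 116 further genes in 4 lists 90 rose (77.6%, median log2 fold 0.55), beside 29.4% of all tested genes. The difference in median from the 37 genes was not tested. Among 43 other small-subunit factors 39 rose (median 0.59), with the kinase gene Riok3 going from 38.4 ± 1.49 to 51.3 ± 6.04 CPM (log2 fold 0.42, SE 0.10) and Nol11 from 16.0 ± 0.221 to 20.6 ± 1.56 CPM. Among 47 other large-subunit factors 38 rose (median 0.58), with Mdn1, a giant ATPase that strips factors from pre-60S particles, going from 32.7 ± 2.06 to 63.9 ± 8.89 CPM (log2 fold 0.97, SE 0.11) and Rsl1d1 from 23.0 ± 1.07 to 29.3 ± 2.92 CPM. Of 14 other RNA polymerase I genes 6 rose (42.9%, median 0.30). With total counts as the only scaling 13 rose (median 0.80), beside 6859 of all 14124 tested genes (median 0.53). Called genes included Baz2a (log2 fold 0.30, SE 0.08), of a complex that silences ribosomal DNA, and Ubtf (log2 fold 0.34, SE 0.11), the upstream binding factor. Of 12 snoRNP assembly factors 7 rose (median 0.47), among them Tcof1, which encodes treacle (log2 fold 0.98, SE 0.12), and the ATPase gene Ruvbl2 (log2 fold 0.65, SE 0.16). At 14 days 3 of the 116 genes were lower than sham, beside 5.64% of all tested genes.

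Related machineries gave the following counts at 1 day. Of 69 tested genes of cytosolic ribosomal proteins 60 rose (median log2 fold 0.62), with Rpl4 going from 98.2 ± 2.72 to 172 ± 15.9 CPM and Rplp0 from 92.2 ± 7.05 to 140 ± 18.2 CPM (SD, n = 3 per group). At 14 days 23 of them (33.3%) were higher than sham and 2 (2.90%) were lower (median 0.30), beside 8.75% and 5.64% of all tested genes. With total counts as the only scaling 4 of the 69 were higher and 0 lower at 14 days (median 0.40). All 14124 tested genes then split into 720 higher and 112 lower (median 0.11). The difference from the 37 genes was not tested. Of 13 genes of the RNA exosome, which trims precursor RNAs, 6 rose (46.2%, beside 29.4% of all tested genes). They included Mtrex (log2 fold 0.25, SE 0.08) and Dis3 (log2 fold 0.74, SE 0.12). With total counts as the only scaling 12 of the 13 rose. At 1 day that scaling called 6859 of all 14124 tested genes higher and 1058 lower, the background for the lists below too. Of 20 RNA polymerase III genes 7 rose (35%) and 2 fell (10%), which is near the 29.4% and below the 24.8% of all tested genes, and 16 rose and 0 fell with total counts as the only scaling. Polr3b (log2 fold 0.47, SE 0.10) and Polr3d (log2 fold 0.84, SE 0.14) were among those that rose. The 2 that fell included Maf1, a repressor of that polymerase (log2 fold -0.57, SE 0.10, and -0.08 with total counts as the only scaling). Of 9 tested noncoding host genes of snoRNAs 6 rose (median log2 fold 1.10), among them Gas5, from 7.60 ± 0.70 to 17.7 ± 2.36 CPM, and Snhg17, from 1.90 ± 0.263 to 4.09 ± 0.688 CPM. Gas5 shares 17.8% of its exonic bases with another gene. Of 9 genes of the p53 pathway, which nucleolar stress is known to engage, 5 rose (55.6%) and 1 fell (11.1%). The shares over all tested genes were 29.4% and 24.8%, and with total counts as the only scaling 8 rose and 1 fell. Zmat3 rose from 7.68 ± 1.11 to 14.3 ± 1.19 CPM, Cdkn1a, a cell cycle inhibitor, from 4.83 ± 1.12 to 14.8 ± 3.02 CPM, and Ccng1 fell from 648 ± 58.1 to 267 ± 77.9 CPM.

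**Figure D5:**
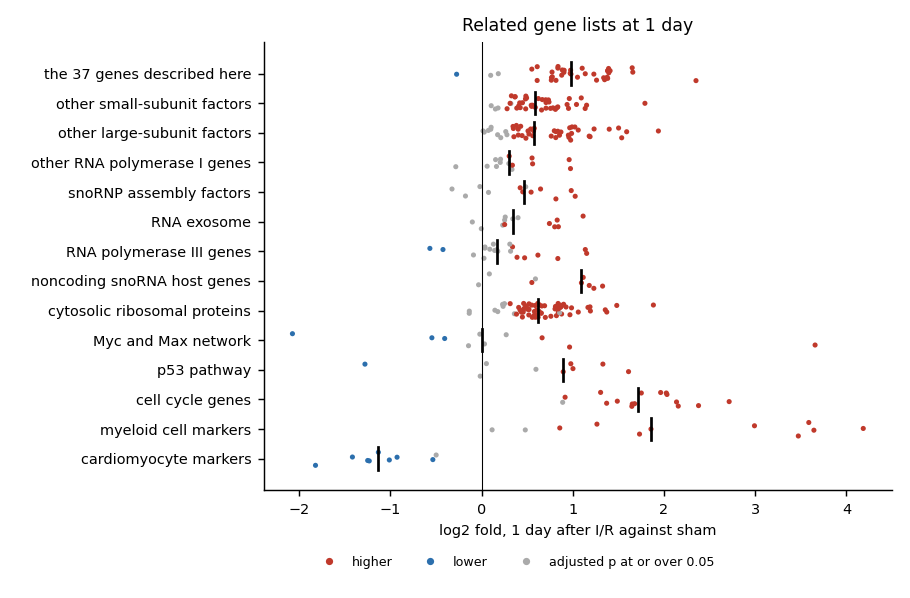
Log2 fold at 1 day against sham (x axis) of every tested gene of each list (y axis), coloured by call, with a black bar at the list's median. The 37 genes have a median of 0.98, the other subunit factors 0.59 and 0.58, and ribosomal proteins 0.62.

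In the network of Myc and its partner Max, 3 of 10 tested genes rose and 3 fell at 1 day (30% each), which is near the 29.4% and 24.8% of all tested genes. With total counts as the only scaling 5 rose and 1 fell, beside 6859 and 1058 of all 14124 tested genes. Myc had 1.00, 0.842 and 0.703 CPM in sham, 11.0, 13.8 and 8.02 CPM in mice 4, 5 and 6, and 1.77, 1.85 and 2.49 CPM in libraries A, B and C. It was higher than sham at 1 day (log2 fold 3.66, SE 0.24, edgeR adjusted p = 4.12e-06) and at 14 days (log2 fold 1.22, SE 0.28, edgeR adjusted p = 0.0150), without overlap at either time. Mycn, a paralog, had 2.89, 2.02 and 2.88 CPM in sham, 0.453, 0.516 and 0.941 CPM at 1 day, and 1.32, 2.11 and 1.35 CPM at 14 days. It was lower at 1 day (log2 fold -2.07, SE 0.31, edgeR adjusted p = 0.000326). Mxd1 and Mlx rose by log2 folds of 0.97 (SE 0.19) and 0.66 (SE 0.12), and Mlx shares 19.3% of its exonic bases with another gene. Mxi1 (log2 fold -0.54, SE 0.15) and Mga (log2 fold -0.40, SE 0.11) were lower, but not with total counts as the only scaling, where they had log2 folds of -0.08 and 0.06. Max itself did not pass the test (11.1 ± 0.0735 CPM in sham and 10.9 ± 1.04 CPM at 1 day, log2 fold -0.02, SE 0.11, edgeR adjusted p = 0.90). Whether Myc bears on the 37 genes was not tested.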

How the data were processed

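The deposited file is 1 table of whole-number counts per Ensembl gene, not normalized. Libraries were stranded and made from TRIzol-extracted total RNA depleted of ribosomal RNA, per the labels' protocols. Reads were processed with STAR 2.7.1a on the build GRCm38 (mm10), per the submitters' processing notes. Which program counted them, with which strand setting and with what rule for multiply mapped reads, is not given in the sources used here.

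Counts were tested with edgeR 4.0.16 (R 4.3.3) by the robust quasi-likelihood test with TMM scaling, the filterByExpr filter and all 9 libraries in 1 fit, and p-values were adjusted by Benjamini-Hochberg over all 14124 tested genes. CPM, log2 folds and SE come from that fit. GENCODE M21 gave names, exon lengths and shared exonic bases, BLAST 2.17.0 gave near-identical copies (95% identity over 100 bases or more), and RefSeq gave promoters. The script was tested on simulated data in which only a small part of the genes changed, so that test does not bear on the choice of scaling. Figures were drawn with matplotlib 3.10.9.

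The 37 genes and the lists were chosen with earlier results of these data known. All 37 are named, and values in every library are given for the largest and smallest 1-day fold of each of 8 roles and for genes called at 14 days (Npm1 and Rrs1 at 14 days were added after their values were seen). From each other list the 2 most abundant called genes were named, with 1 in the other direction, and in the Myc network all called genes (Max was added). Replicates of a group differed by more than sampling noise (chi-square divided by degrees of freedom, 7.42 to 97.3). The labels number the mice separately, but p-values measure only the spread between these samples. Few counts limit what can be said of genes such as Fbl, and why Fbl had so few was not tested. Alternatives were DESeq2 1.42.0 (size factors and Wald test), total counts only, upper-quartile scaling, TMM without mitochondrially encoded and ribosomal RNA genes, limma-voom (limma 3.58.1), other filters, a fit of the compared groups alone, each library left out, genes with shared exons left out and transcript length.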

Additional observations from a re-analysis of the deposited data

How the results depend on the processing

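No paired analysis was possible because the groups share no replicate numbers. The count of genes higher at 1 day against sham was 31 to 36 over 19 alternatives, and that of genes lower at 14 days than at 1 day was 33 to 36, the lowest of each when the 3 genes with shared exons were left out of the count. With each library left out, these counts were 33 to 34 and 35 to 36, and the median log2 folds were 0.85 to 1.10 and -1.27 to -1.0.

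With total counts as the only scaling, the median log2 fold was 1.47 at 1 day, 0.076 at 14 days against sham (a change of sign) and -1.56 at 14 days against 1 day. There the counts of genes lower at 1 day, lower at 14 days against sham and higher at 14 days than at 1 day were each 0, and Nop10 had log2 folds of 0.20 at 1 day and -0.0255 at 14 days against 1 day, both changes of sign. These shifts follow the median of all tested genes, which moved to 0.53, 0.11 and -0.38.

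The count of genes lower at 1 day (Nop10) was 0 with DESeq2's Wald test, with no filter on low counts, when the compared groups were fitted alone and, with each library left out, 0 to 1. At 14 days against sham 1 gene was higher (Npm1) with upper-quartile scaling, with no filter on low counts and when those groups were fitted alone, and 0 to 1 with each library left out, where 0 to 2 were lower and the median log2 fold was -0.0552 to 0.0029. At 14 days against 1 day the count of genes higher (Nop10) was 0 to 1 with each library left out. The causes were not tested. Per kb of the longest transcript, the median level of the 37 genes was 2.36 CPM in sham, 4.90 at 1 day and 2.45 at 14 days, in place of 1.99, 3.91 and 1.96.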
